A study of Mus musculus with 34 samples.

Results

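The genes described here are 4 annotated pseudogenes on mouse chromosome 1 that copy mitochondrial DNA: Gm29216, Gm28661, Gm28437 and Gm10222. They were chosen by name among the 51368 genes of the deposited count table, with their behaviour across library methods and fragment lengths already known, so their values over methods and lengths are a description without a test. The series asked how the removal of ribosomal RNA (rRNA), the ramp rate of the PCR (how fast the cycler changes temperature) and the fragment length act on RNA-seq data. All liver libraries were made from 1 liver RNA sample of a wild-type C57BL/6J mouse, which the growth protocol gives as 12 weeks old. Its sex is given as female in the sample characteristics but as male in the growth protocol. There were 9 libraries with polyA selection, which keeps RNA by its tail, 9 with rRNA pull-down, in which probes carry rRNA away, and 9 with rRNA digestion, in which probe-bound rRNA is degraded. Each of these sets held 1 library for every combination of a slow, medium or fast ramp with short, medium or long fragments. Unselected liver libraries, with a slow ramp and medium fragments, numbered 3 in batch 1 and 3 in batch 2, and 1 unselected heart library came from batch 1. PolyA libraries were in batch 1 and the libraries of both rRNA methods in batch 2, each method had its own kit, and input was 200 ng for selected against 20 ng for unselected libraries. Method, kit, batch and input therefore cannot be told apart where they change together, and p-values measure the spread between preparations of 1 RNA sample. In tests over libraries of several methods, that spread also holds differences of the length or ramp effect between methods, which were not modelled.

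Mitochondrial DNA encodes 13 messenger RNAs, which include the 3 catalytic subunits of cytochrome c oxidase (complex IV: mt-Co1, mt-Co2 and mt-Co3) and subunits of NADH dehydrogenase (complex I: mt-Nd4l among them). Pieces of mitochondrial DNA have been copied into nuclear chromosomes during evolution. A recent copy has nearly the sequence of the mitochondrial gene, while mitochondria read a genetic code of their own, so that such copies are annotated as pseudogenes. A read from a stretch that both share matches both equally, and the program Salmon, which made the deposited counts, divides such reads between the matching transcripts by a statistical model.

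All 4 genes lay in 1 block on the minus strand at chr1:24611535-24616197 (GRCm38, GENCODE M21), 4663 bases that held 7 unprocessed pseudogenes and no other annotated gene within 10000 bases of a member. The 7 followed the order of the mitochondrial genes from position 6381 to 11042 of the mitochondrial chromosome, and their distance to the mitochondrial coordinates differed by 1 base at most. Gm29216 (ENSMUSG00000101249, chr1:24615706-24616197, 492 bases) matched the last 492 of the 1545 bases of mt-Co1. Gm28661 (ENSMUSG00000102070, chr1:24614885-24615565, 681 bases) matched the first 681 of the 684 bases of mt-Co2. Gm28437 (ENSMUSG00000101111, chr1:24613189-24613971, 783 bases) matched the first 783 of the 784 bases of mt-Co3. Gm10222 (ENSMUSG00000067736, chr1:24612407-24612700, 294 bases) matched the first 294 of the 297 bases of mt-Nd4l. Each pseudogene and the mitochondrial gene it copies are called a pair here. The sequence thus fits the label of the group.

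**Figure D1:**
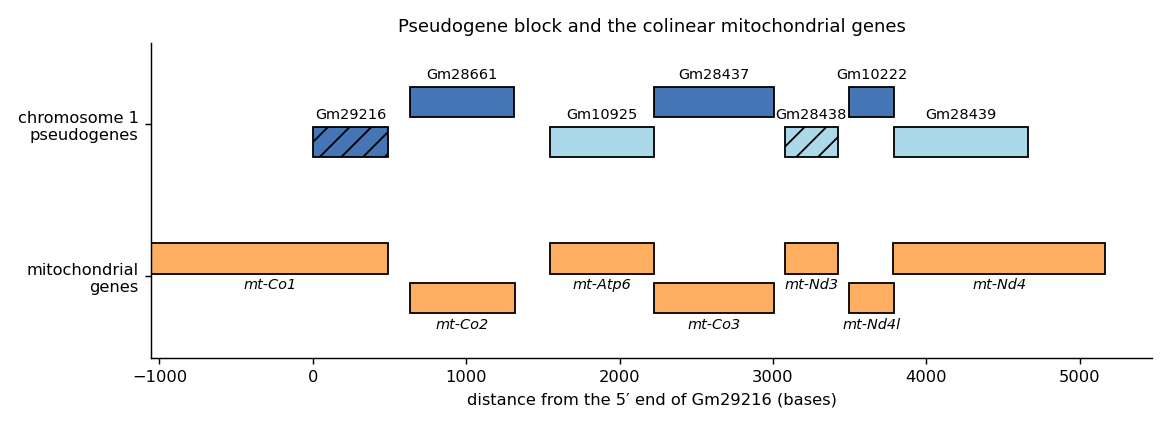
Map of the 7 pseudogenes (upper track, members dark, the other 3 light, hatched where a base differs) and of the mitochondrial genes they copy (lower track), by distance in bases from the 5′ end of Gm29216, in the direction of transcription. The pseudogenes lie in the order of the mitochondrial genes. Gm29216 covers only the 3′ end of mt-Co1, and Gm28661, Gm28437 and Gm10222 cover nearly the whole of theirs.

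Gm29216 was the only member with bases of its own. Its first 200 bases and the matching stretch of mt-Co1 are printed because every difference between them sat in the first 13 bases. Capitals mark the bases that differ, and both run 5′ to 3′ as transcribed.
Gm29216, first 200 bases: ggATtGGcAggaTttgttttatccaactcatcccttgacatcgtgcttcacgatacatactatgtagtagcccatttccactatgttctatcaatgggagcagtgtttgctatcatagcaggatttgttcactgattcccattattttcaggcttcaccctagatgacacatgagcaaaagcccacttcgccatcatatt
mt-Co1, matching 200 bases: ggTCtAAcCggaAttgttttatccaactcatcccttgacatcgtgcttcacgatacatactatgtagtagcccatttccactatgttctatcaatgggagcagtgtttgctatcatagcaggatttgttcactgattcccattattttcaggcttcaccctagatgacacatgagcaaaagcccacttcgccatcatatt
The 6 differences were T3A, C4T, A6G, A7G, C9A and A13T, with the mitochondrial base first and positions counted from 1 at the 5′ end of Gm29216. The 479 bases after these were identical, and identity over the whole length was 98.8%. Of the 462 words of 31 bases in Gm29216, 13 were found in no mitochondrial transcript.

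The other 3 members had no base that differed from mitochondrial RNA over their annotated length. Gm10222 is printed whole with mt-Nd4l, because its counts were split in the digestion and heart libraries alone, and capitals mark the bases that only the mitochondrial transcript has.
Gm10222: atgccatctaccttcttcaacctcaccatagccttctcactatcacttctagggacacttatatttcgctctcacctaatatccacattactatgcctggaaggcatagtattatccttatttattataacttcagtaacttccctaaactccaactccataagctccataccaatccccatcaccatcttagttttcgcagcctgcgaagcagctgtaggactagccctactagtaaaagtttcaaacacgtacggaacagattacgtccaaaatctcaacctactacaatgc
mt-Nd4l: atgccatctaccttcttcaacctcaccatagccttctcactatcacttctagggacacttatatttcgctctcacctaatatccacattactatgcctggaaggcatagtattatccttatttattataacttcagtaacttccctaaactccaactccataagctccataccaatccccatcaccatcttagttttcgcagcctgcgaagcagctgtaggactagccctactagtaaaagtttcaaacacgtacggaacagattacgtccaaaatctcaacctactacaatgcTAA
For Gm28661 and Gm28437 the last 60 bases are printed with the end of the mitochondrial transcript, again with its extra bases in capitals.
Gm28661, last 60 bases: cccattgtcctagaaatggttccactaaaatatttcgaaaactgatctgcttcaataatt
mt-Co2, end: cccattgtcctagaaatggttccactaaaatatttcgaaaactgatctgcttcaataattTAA
Gm28437, last 60 bases: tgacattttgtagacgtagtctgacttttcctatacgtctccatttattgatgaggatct
mt-Co3, end: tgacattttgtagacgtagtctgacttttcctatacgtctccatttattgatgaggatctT
In all 3 pairs every word of 31 bases of the pseudogene occurred in mitochondrial transcripts, and the mitochondrial transcript had 3, 1 and 3 words of its own for mt-Co2, mt-Co3 and mt-Nd4l. The members shared no such word with each other. A count of Gm28661, Gm28437 or Gm10222 is therefore a share of reads that fit the mitochondrial transcript equally well over the annotated sequence.

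Library totals, in M (1e+06 counts), spanned 19.9 to 21.7 M for unselected liver, 23.5 to 41.4 M with polyA selection, 20.0 to 30.2 M with digestion and 22.3 M in heart. With pull-down the slow-ramp, long-fragment library had 1.13 M and the other 8 had 23.4 to 39.2 M. The 4 pseudogenes held 0.642 to 1.21% of all counts in polyA, 0.326 to 0.563% in pull-down, 0.197 to 0.385% in digestion and 0.0987 to 0.132% in unselected liver libraries. Liver markers (7 of 7 detected) summed to 61.3 counts per 1e+06 (CPM) of the library total in heart against 11968 to 12727 CPM in unselected liver, and heart markers to at most 0.772 CPM in any liver library against 8471 CPM in heart. Markers of the other cells of liver summed to 71.7 to 76.2 CPM in unselected liver and to 113 CPM in heart, so this list did not separate the tissues. In selected liver libraries they summed to 223 to 235 CPM with digestion, 396 to 462 with polyA selection and 479 to 594 with pull-down. Values below are normalised CPM, the counts per 1e+06 of the TMM-scaled library total, unless counts are named.

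Gm28661, the copy of mt-Co2, had nearly the same level in unselected and polyA libraries and was low in digestion. Its level was 2349, 2684 and 2902 normalised CPM in the unselected libraries of batch 1 and 2553, 2659 and 2713 in those of batch 2. In polyA libraries the lowest, median and highest values were 1996, 2515 and 3723, in pull-down 1357, 1716 and 2527, and in digestion 81.0, 283 and 724. The order of the means was polyA (2740 ± 598, SD, n = 9), batch 1 (2645 ± 278, SD, n = 3), batch 2 (2641 ± 81.3, SD, n = 3), pull-down (1833 ± 364, SD, n = 9) and digestion (330 ± 209, SD, n = 9), and the means of the first 3 lay within 1 SD of the polyA libraries. Every digestion library was below every other liver library. Fitted log2 fold changes were -3.50 (SE 0.30) for digestion against unselected batch 2, -0.86 (SE 0.30) for pull-down against the same libraries and -0.29 (SE 0.30) for polyA against unselected batch 1. These folds were fitted with ramp and length as factors, and the polyA value has the opposite sign to the difference of the 2 group means and is smaller than its SE.

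The mitochondrial gene of this pair was not lowest in digestion. mt-Co2 was at 981 to 1359 normalised CPM in the 9 digestion libraries, at 210 to 1041 in the 6 unselected liver libraries, at 337 to 938 in the 9 polyA libraries and at 0 to 1679 in the 9 pull-down libraries. Gm28661 took 71.9 to 93.2% of the counts of the pair in unselected liver, 77.2 to 88.1% in polyA, 50.1 to 100% in pull-down and 6.24 to 42.5% in digestion libraries. These percentages are shares of counts, not levels per length. The value of 100% was that of the pull-down library of low depth, which had 2681 counts for Gm28661 and 0 for mt-Co2. The sum of the pair was 1298 to 1705 normalised CPM in digestion, 2586 to 4332 in polyA, 2943 to 3114 in unselected batch 1 and 3217 to 3700 in batch 2. In pull-down it was 2052 to 3830 without the library of low depth. Digestion remained lowest, with a log2 fold change of -1.30 (SE 0.12) for the sum against -3.50 for Gm28661 alone. Most mitochondrial mRNAs outside the pairs of the members were also lower in digestion. Each summed with its pseudogene if it has one in the block, they ran from -1.89 (mt-Nd2) to 0.60 (mt-Nd3). Only mt-Nd3 was above 0, and mt-Nd1 read -1.25 and mt-Cytb -1.23.

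Gm28437, the copy of mt-Co3, had its lowest mean in digestion, but its pair was not lowest there. Its level was 1927, 2037 and 2155 normalised CPM in unselected batch 1 and 2319, 2439 and 2678 in batch 2. In polyA the lowest, median and highest values were 1497, 1824 and 4589, in pull-down 328, 1607 and 2453, and in digestion 460, 884 and 1146. Digestion did not overlap the unselected libraries, while polyA and pull-down did. The lowest single value, 328, was that of a pull-down library with long fragments. With long fragments the mean was 837 in pull-down and 996 in digestion. The order of the means was polyA (2576 ± 1241, SD, n = 9), batch 2 (2479 ± 183, SD, n = 3), batch 1 (2040 ± 114, SD, n = 3), pull-down (1501 ± 606, SD, n = 9) and digestion (861 ± 222, SD, n = 9). Of the neighbours in this order, batch 2 and batch 1, and pull-down and digestion, were apart by more than the SD of each.

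The log2 fold change of Gm28437 was -1.59 (SE 0.41) for digestion and -0.73 (SE 0.40) for pull-down against unselected batch 2, and 0.24 (SE 0.43) for polyA against batch 1. Summed with mt-Co3 the values were -0.08 (SE 0.19), -0.16 (SE 0.19) and -0.21 (SE 0.19). Gm28437 took 59.2 to 66.6% of the counts of its pair in unselected liver, 68.1 to 91.5% in polyA, 5.58 to 76.3% in pull-down and 12.4 to 29.7% in digestion libraries. The sum was 3673 to 4133 normalised CPM in digestion and 3661 to 4124 in unselected batch 2, nearly the same range. The other methods spanned more, 2096 to 5017 in polyA and 2325 to 6126 in pull-down, against 3131 to 4124 over the 6 unselected liver libraries. The polyA libraries of short fragments, at 2096 to 2429, were all below the unselected ones, and those of long fragments, at 4410 to 5017, were all above.

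Gm29216, the copy of the 3′ end of mt-Co1, was present in all 27 selected libraries and nearly absent from unselected ones. Its level in polyA had a lowest, median and highest value of 433, 917 and 1171 normalised CPM, in pull-down of 59.2, 608 and 1033, and in digestion of 249, 537 and 754. The counts were 3.26 in 1 library of unselected batch 1 and 0 in the other 5 unselected libraries, which had 51858 to 62242 counts of mt-Co1. Against a floor of 3 counts in each unselected library of batch 2, it was at least 968-fold higher in pull-down and at least 860-fold higher in digestion. Against the 3 counts over batch 1, the ratio for polyA was 4209 (95% counting interval 1440 to 20412, counting error only). This ratio takes 3 counts over 3 libraries together and not in each, so it cannot be ranked against the bounds for pull-down and digestion.

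The share of Gm29216 in the counts of its pair stayed small, 2.83 to 13.0% in polyA, 0.534 to 11.6% in pull-down and 2.33 to 7.17% in digestion. The means were 864 ± 261 in polyA, 586 ± 361 in pull-down and 521 ± 200 normalised CPM in digestion (SD, n = 9 each), so neighbours in this order differed by less than the larger of their SDs. The sum with mt-Co1 showed little of the difference from unselected libraries: its log2 fold change was 0.02 (SE 0.17) in polyA, -0.23 (SE 0.16) in pull-down and -0.16 (SE 0.16) in digestion.

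Gm10222, the copy of mt-Nd4l, had counts in the 9 digestion libraries and in heart alone. In digestion its lowest, median and highest values were 64.2, 84.8 and 157 normalised CPM, from 2798 to 7125 counts, and it took 38.2 to 67.9% of the counts of its pair. It was at 0 counts in all 9 polyA, all 9 pull-down and all 6 unselected liver libraries. mt-Nd4l had 13038 to 19294 counts in polyA and 3060 to 4101 in unselected libraries, so the pair was counted there through mt-Nd4l alone. In pull-down mt-Nd4l had 206 counts in the library of low depth and 1004 to 2541 in the others. Digestion was at least 160-fold higher than the floor of 3 counts in each unselected library of batch 2.

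The sum of Gm10222 and mt-Nd4l was lower in digestion than in unselected batch 2, 168 to 237 against 690 to 828 normalised CPM, while Gm10222 itself was higher. For the sum, the log2 fold change was -1.94 (SE 0.18) for digestion, -3.81 (SE 0.19) for pull-down and -0.83 (SE 0.19) for polyA. In pull-down the mitochondrial mRNAs outside the pairs of the members, summed with their pseudogenes if any, were all below 0. They ran from -4.29 (mt-Nd6) to -0.18 (mt-Nd3), and mt-Nd5 read -3.42. Gm10222 and the summed pair thus had opposite directions in digestion.

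Among the 15422 genes fitted, groups did not overlap, in the higher direction, for 23% of genes between polyA and unselected batch 1, for 11.5% between pull-down and batch 2 and for 16.2% between digestion and batch 2. The shares in the lower direction were 21%, 12.3% and 10.9%. Of the 4 members, Gm29216 was higher without overlap in all 3 comparisons and Gm10222 in digestion, while Gm28661 was lower in pull-down and digestion and Gm28437 in digestion. Between digestion and pull-down, 15.9% of genes were higher and 13.2% lower without overlap, and of the members Gm10222 was higher and Gm28661 lower. The comparisons of pull-down and of digestion share the unselected libraries of batch 2. Since methods chose the members, nothing is read from these counts. All 4 members passed the filter on low counts in this fit, Gm10222 through the digestion libraries. With library totals in place of TMM scaling, the median over all genes shifted to 2.67, 2.31 and 2.85 (log2) for polyA, pull-down and digestion from 0.04, 0.06 and 0.04. On that scale Gm28661 read 2.35, 1.40 and -0.68 and Gm28437 2.88, 1.53 and 1.22, so the directions given above are relative to the median gene. Gm29216 and Gm10222 were higher on both, with lower bounds of 4703 and 5991 for Gm29216 in pull-down and digestion, of 1111 for Gm10222 in digestion, and a ratio of 26258 (95% counting interval 8985 to 127328) for Gm29216 in polyA on library totals.

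**Figure D2:**
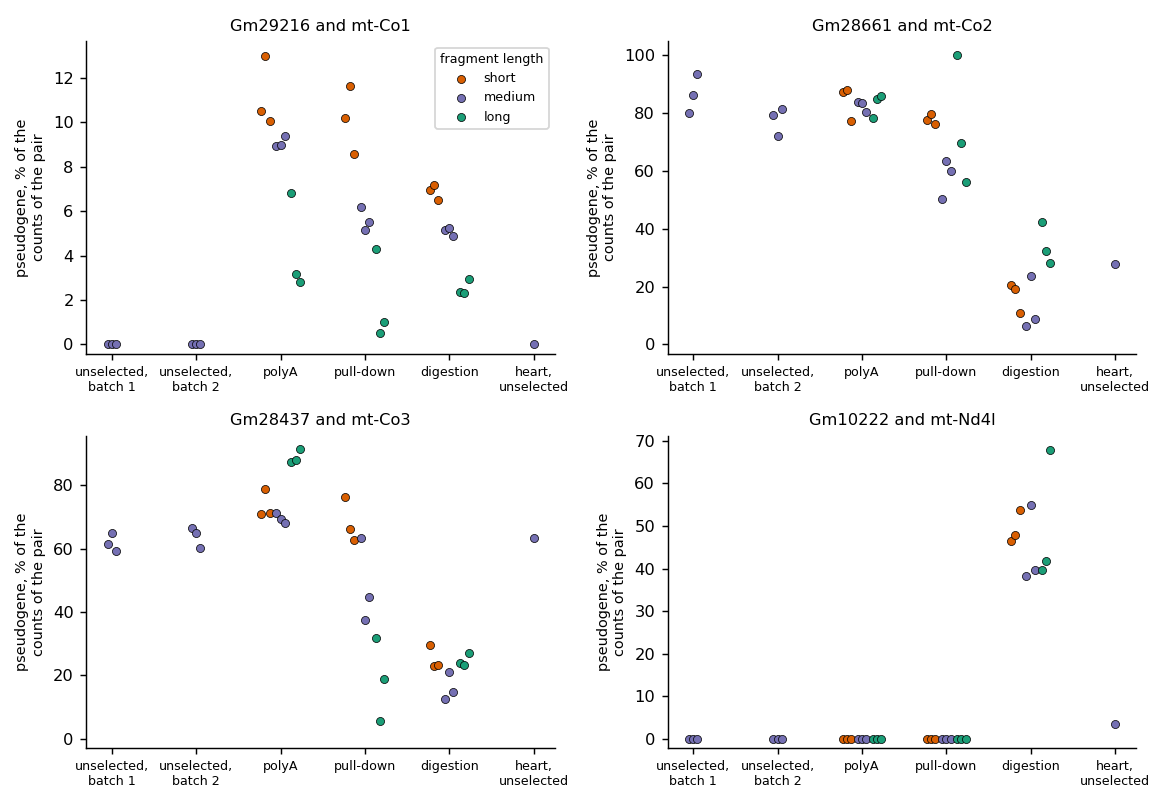
Share of the counts of each pair given to the pseudogene, in percent (vertical axis), for each of the 34 libraries as a point, by group, coloured by fragment length. Gm28661 lies between 71.9 and 93.2% in unselected liver libraries, between 6.24 and 42.5% in digestion and at 27.8% in heart, and Gm10222 is above 0 in digestion and heart alone.

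**Figure D3:**
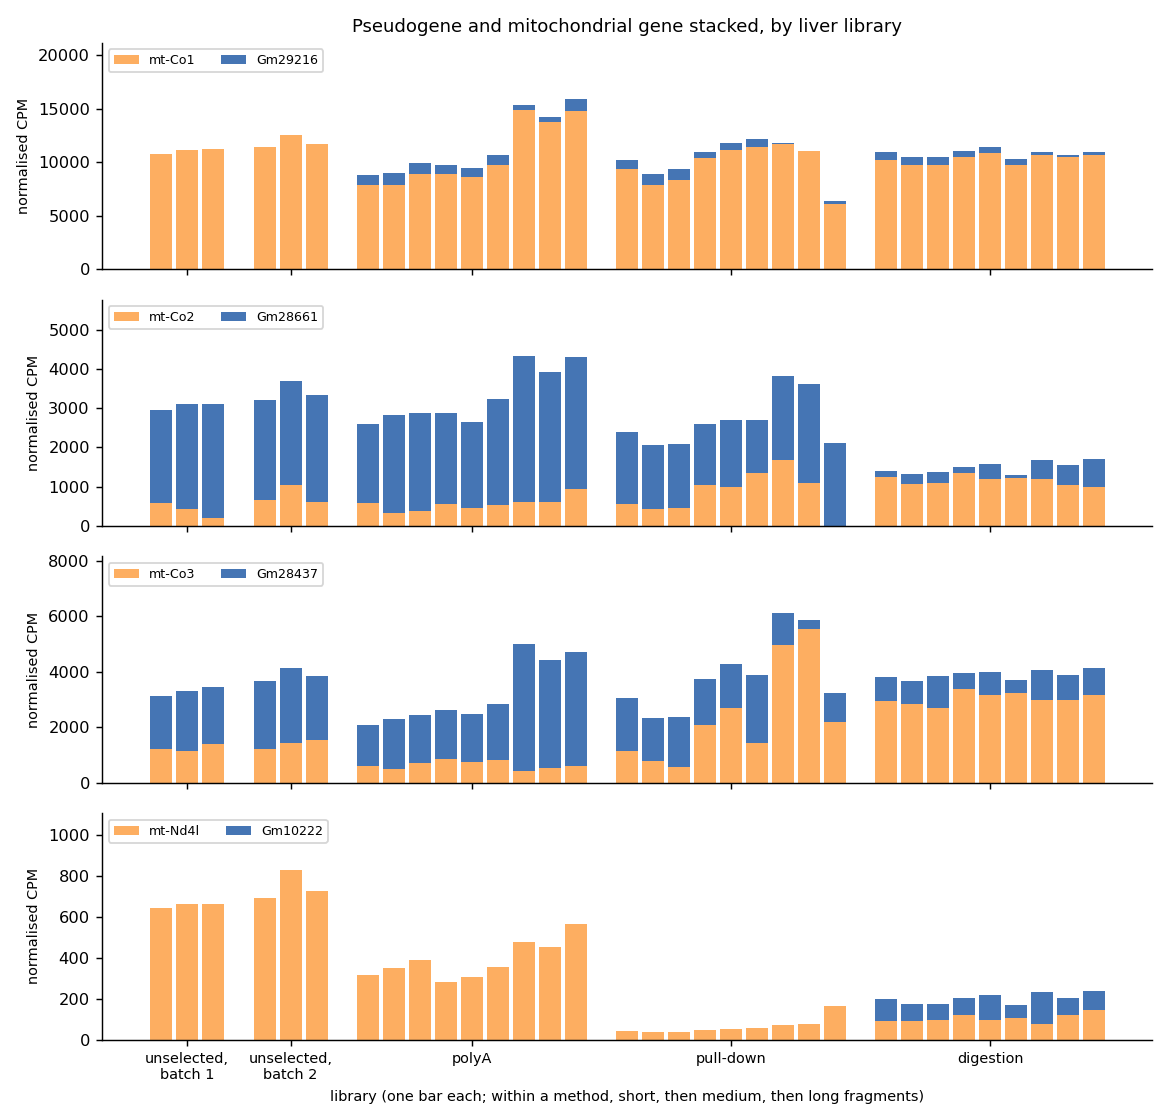
Normalised CPM of each mitochondrial gene with its pseudogene stacked on top, 1 bar per liver library, in the order short, medium, long within a method. In digestion the sum of Gm28437 and mt-Co3 spans 3673 to 4133 normalised CPM, while Gm28437 alone spans 460 to 1146.

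The sum of a pair varied less among the libraries of a group than the pseudogene did in most cases. The SD of log2 normalised CPM was smaller for the sum in 12 of the 14 sets of 1 member and 1 group where it could be computed, and in 12 with the pull-down library of low depth left out. In digestion it was 1.03 for Gm28661 and 0.14 for its sum, 0.43 and 0.06 for Gm28437, 0.64 and 0.05 for Gm29216, and 0.38 and 0.18 for Gm10222. The 2 exceptions were Gm28661 in pull-down, at 0.28 against 0.33 for the sum, and Gm28661 in unselected batch 2, at 0.04 against 0.11. The SD of the mitochondrial gene alone in digestion was 0.15 for mt-Co2, 0.10 for mt-Co3 and 0.28 for mt-Nd4l, each above that of the sum. The small SD of the sum of Gm28661 is thus nearly that of mt-Co2. The sum was not always steadier than the mitochondrial gene alone: for Gm28437 in polyA the SD of the sum was 0.49, against 0.34 for mt-Co3. For Gm29216, whose sum is mostly mt-Co1, the SD in digestion was 0.05 against 0.06 for mt-Co1 alone. Over the 27 selected libraries the Spearman rho between pseudogene and mitochondrial gene was -0.51 for Gm29216, -0.58 for Gm28661, -0.85 for Gm28437 and -0.12 for Gm10222. These are descriptions over libraries of 1 RNA sample, which share method and length, and a pair divides its shared reads.

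Gm29216 was lower with long than with short fragments in 8 of 9 matched pairs of libraries, the exception being the slow ramp in polyA, while Gm28437 had different directions in different methods. For Gm29216 in pull-down the levels were 875, 951 and 1033 normalised CPM with short, 604, 608 and 753 with medium, and 59.2, 116 and 276 with long fragments. In digestion they were 710, 726 and 754 with short, 530, 537 and 600 with medium, and 249, 258 and 324 with long fragments. No length overlapped another in these 2 methods. In polyA the long-fragment libraries were at 433, 448 and 1081 and the short ones at 883, 1047 and 1171, which overlapped through the slow-ramp, long-fragment library. The log2 fold change of long against short fragments was -0.78 (SE 0.22) in polyA, -2.89 (SE 0.39) in pull-down and -1.41 (SE 0.07) in digestion. Summed with mt-Co1 it was 0.69 (SE 0.02), 0.03 (SE 0.19) and 0.03 (SE 0.02).

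Gm28661 was higher with long than with short fragments in all 9 matched pairs of libraries with the same method and ramp. In digestion it was at 152, 254 and 283 normalised CPM with short and at 475, 500 and 724 with long fragments. Long against short gave a log2 fold change of 0.56 (SE 0.08) in polyA, 0.43 (SE 0.10) in pull-down and 1.35 (SE 0.31) in digestion. The sum with mt-Co2 had the same direction in each method, at 0.58, 0.54 and 0.26. This direction was not particular to Gm28661, which read 0.81 over the 27 selected libraries. There the mitochondrial mRNAs outside the pairs of the members, summed with their pseudogenes if any, read 0.40 (mt-Cytb) to 1.62 (mt-Nd3). Gm10925, the copy of mt-Atp6 in the block, read 0.43 and was higher in 8 of 9 matched pairs. In digestion alone mt-Atp8 read -0.04.

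Gm28437 was higher with long fragments in polyA and lower in pull-down. In polyA it was at 1497, 1727 and 1824 normalised CPM with short and at 3883, 4138 and 4589 with long fragments. In pull-down it was at 1541, 1795 and 1923 with short and at 328, 1022 and 1160 with long fragments. Short and long groups did not overlap in either method, and in digestion they did, at 846 to 1146 against 904 to 1100. On the log2 scale, long against short was 1.30 (SE 0.08) in polyA, -1.19 (SE 0.31) in pull-down and 0.05 (SE 0.15) in digestion. The sum with mt-Co3 was higher with long fragments in polyA and pull-down alike, at 1.03 (SE 0.05) and 0.96 (SE 0.19), and at 0.09 (SE 0.03) in digestion.

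Gm10222 had a log2 fold change of 0.28 (SE 0.17) between long and short fragments in digestion. Its levels were 81.2, 83.5 and 108 with short and 84.8, 93.7 and 157 normalised CPM with long fragments. These overlapped, though Gm10222 was higher with long fragments in 3 of 3 pairs with the same ramp. Among all genes fitted, short and long libraries did not overlap for 29.4% (higher with long) and 25.8% (lower) in polyA, for 8.53% and 13.7% in pull-down and for 17.1% and 15.3% in digestion. Of the 4 members, Gm28661 and Gm28437 were higher in polyA, Gm28661 was higher and Gm29216 and Gm28437 lower in pull-down, and Gm28661 was higher and Gm29216 lower in digestion. Length was part of how the members were chosen, so nothing is read from these counts either.

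**Figure D4:**
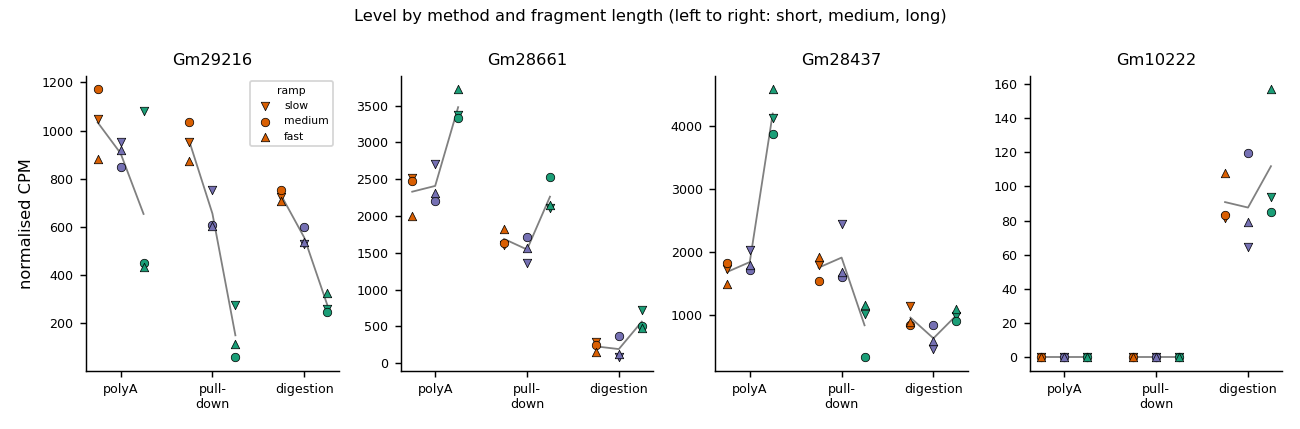
Normalised CPM of each pseudogene by method, with short, medium and long fragments from left to right within a method. Points are libraries, marked by ramp rate, and the grey line joins the means of 3 libraries. The level of Gm29216 declines towards long fragments in pull-down, from 875 to 1033 with short down to 59.2 to 276 with long fragments, and that of Gm28437 goes opposite ways from medium to long fragments in polyA and pull-down.

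The ramp rate was not used to choose the members, so it was tested with edgeR's quasi-likelihood test over all genes. No member passed at an adjusted p of 0.05 over the 27 selected libraries, where 0.0328% of the genes tested (5 of 15230) did and 663 had an unadjusted p under 0.05. The log2 fold change of fast against slow was -0.36 (SE 0.24) for Gm29216, -0.16 (SE 0.20) for Gm28661, -0.08 (SE 0.27) for Gm28437 and 0.50 (SE 0.22) for Gm10222, each with an adjusted p of 1.0 by the same test. Gm29216 was lower with the fast ramp in 7 of 9 matched pairs, Gm28661 and Gm28437 were higher in 5 of 9, and Gm10222 was higher in the 3 digestion pairs. Leaving out 1 library moved Gm29216 to -0.13 (without polyA slow long), Gm10222 to 0.25 (without digestion fast long) and Gm28661 to between -0.27 and -0.0033 (the latter without digestion slow long). Gm28437 ranged from -0.21 to 0.078 and turned direction without polyA slow long (0.011), polyA fast short (0.00073) or pull-down slow medium (0.078). Unadjusted p-values of the 4 members were 0.150, 0.441, 0.776 and 0.0507 in edgeR's test.

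Within single methods edgeR called none of the members either. In polyA, 0.287% of genes (42 of 14629) passed, and Gm29216 had a log2 fold change of -0.57 (SE 0.22, edgeR adjusted p = 0.244), lower in 3 of 3 pairs. It read -0.37 without the fast-ramp and -0.13 without the slow-ramp library of long fragments. In pull-down, 0% (0 of 14426) passed, with 324 genes at an unadjusted p under 0.05 and 14 called by DESeq2. Gm29216 read -0.60 (SE 0.36) there, and -0.05 without the library of low depth, when 17 genes passed. In digestion, 0.388% of genes (59 of 15199) passed. There Gm10222 had a log2 fold change of 0.51 (SE 0.17, edgeR adjusted p = 0.454), higher in 3 of 3 pairs, and Gm28661 of -0.42 (SE 0.31, adjusted p = 0.899).

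2 limits bear on these ramp values. In digestion edgeR called Gm10222 (adjusted p = 0.00072) without the medium-ramp, medium-fragment library, where 0.485% of genes passed, and Gm28661 (log2 fold change -0.91, adjusted p = 0.0208) without the slow-ramp, medium-fragment library, where 0.338% passed. With no filter on low counts, edgeR called Gm29216 and Gm28661 in polyA (adjusted p = 3.23e-05 and 0.0237) and Gm29216, Gm28661 and Gm10222 in digestion (adjusted p = 1.98e-06, 5.02e-92 and 2.68e-95), with the fold changes as before and with 1.95% and 0.99% of genes passing. In the unfiltered fits the weight edgeR gave to the spread shared by all genes rose from 6.91 to 58.4 prior degrees of freedom in polyA and from 11.2 to infinity in digestion, so in digestion a gene's own spread no longer counted.

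The mitochondrial genes were tested in the same fits, 15 of 37 after the filter. Over the 27 selected libraries 0 passed. In polyA mt-Nd4l (log2 fold change -0.30, SE 0.04, edgeR adjusted p = 0.0234) and mt-Nd6 (-0.52, SE 0.07, adjusted p = 0.0234), both complex I subunits, fell with the fast ramp. Both calls were lost without the medium-ramp or without the fast-ramp library of medium fragments, where edgeR called 0 genes. In digestion mt-Co2 rose (0.21, SE 0.02, edgeR adjusted p = 0.000267). Its pseudogene Gm28661 read -0.42 in digestion, and the sum of the pair read 0.06 with an adjusted p of 0.897 in edgeR's test. Summed with their mitochondrial genes over the 27 libraries, the pairs of Gm29216, Gm28661 and Gm10222 had the opposite sign to the member, at 0.05, 0.09 and -0.16. That of Gm28437 read 0.11, against a value for the member whose sign depended on single libraries. Gm10222 was at 0 in 18 of these libraries, where its sum is mt-Nd4l alone. Within single methods most sums did not change sign. In polyA they read -0.13, -0.11 and -0.083 for Gm29216, Gm28661 and Gm28437, the same sign as the members. In digestion those of Gm29216, Gm28437 and Gm10222 kept the sign of the member, at 0.052, 0.016 and 0.13, and in pull-down that of Gm28661 did, at 0.32.

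**Figure D5:**
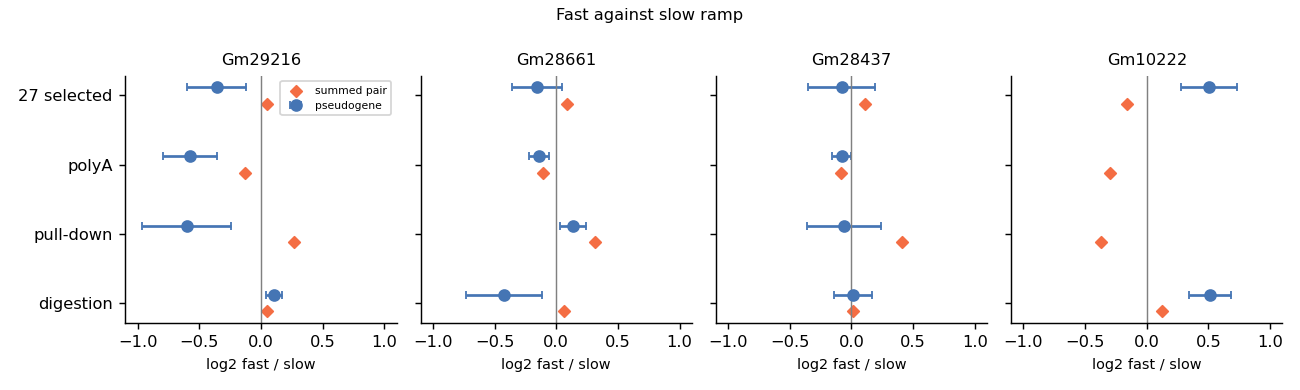
Log2 fold change of fast against slow ramp for each pseudogene (circles, bars are 1 SE) and for its sum with the mitochondrial gene (diamonds, no error drawn), over the 27 selected libraries and within each method. None of the pseudogene values passed an adjusted p of 0.05 in edgeR's test, and the sums of the 27-library fit lie on the other side of 0 from the pseudogenes, of which that of Gm28437 (-0.08, SE 0.27) turned with 1 library left out, while in polyA the sums lie on the same side. Gm10222 was tested where digestion libraries were present.

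Unselected libraries of batch 2 and batch 1 were compared in a fit over the 33 liver libraries. edgeR called 0% of genes (0 of 15422), with 848 at an unadjusted p under 0.05 and 18 called by DESeq2. This fit took its spread from all 33 libraries, most of them selected, and not from the unselected libraries compared. Gm28437 was at 1927 to 2155 normalised CPM in batch 1 and at 2319 to 2678 in batch 2, with a log2 fold change of 0.28 (SE 0.44, edgeR adjusted p = 0.982). The SD of its log2 level was only 0.081 within batch 1 and 0.105 within batch 2, so the SE is not the spread of these libraries. The batches did not overlap for this gene, nor for 5.77% of the genes fitted in the higher and 7.12% in the lower direction. mt-Co1 (10786 to 11194 against 11432 to 12564 normalised CPM), mt-Nd1, mt-Nd4, mt-Nd4l and Gm10925 were likewise higher in batch 2 without overlap, so this does not mark out Gm28437. Gm28661 overlapped between batches, at a log2 fold change of 0.00 (SE 0.32, adjusted p = 1.0), while mt-Co2 and the sum of this pair were higher in batch 2 without overlap. Gm29216 and Gm10222 were at or near the floor of 3 counts in all 6 libraries, so no fold is given. Fitted on the 6 unselected libraries alone, edgeR called 0.366% of genes (39 of 10642), Gm28437 among them (log2 fold change 0.30, adjusted p = 0.000147).

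Heart had 1 library, so values are set side by side without a test. Gm28437 was at 7794 normalised CPM in heart against 1927 to 2155 in the 3 unselected liver libraries of batch 1, a ratio of 3.82 to their mean. Gm28661 was at 3172 against 2349 to 2902, a ratio of 1.20, while mt-Co2 was at 8226 against 210 to 594, a ratio of 20.0. The sums gave more even ratios, 3.60 for Gm29216 with mt-Co1, 3.73 for Gm28661 with mt-Co2, 3.73 for Gm28437 with mt-Co3 and 3.18 for Gm10222 with mt-Nd4l. Gm10222 had 607 counts in heart, 3.48% of its pair, and 0 in the liver libraries of its method. Gm29216 had 4.30 counts in heart against 333866 of mt-Co1. In bulk RNA, more cells of a type and more RNA per cell cannot be told apart.

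The other 3 pseudogenes of the block were Gm10925 (copy of mt-Atp6, a subunit of ATP synthase), Gm28438 (copy of mt-Nd3) and Gm28439 (copy of the first 876 bases of mt-Nd4, both complex I subunits). Gm10925, identical to mt-Atp6 over its 678 bases, took 57.1 to 95.9% of the counts of its pair in every liver library and 93.7% in heart. In digestion its share was 79.5 to 88.7%, above the 6.24 to 42.5% of Gm28661 and the 12.4 to 29.7% of Gm28437 in the same libraries. Gm28439 had 0 counts in all 34 libraries, although its 876 bases are identical to mt-Nd4.

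Gm28438 differs from mt-Nd3 by 1 base, T3C, shown in capitals in the first 33 bases of each.
Gm28438, first 33 bases: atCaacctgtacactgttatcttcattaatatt
mt-Nd3, first 33 bases: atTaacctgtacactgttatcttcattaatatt
It had counts in 5 of 9 polyA libraries, 14912 of them in the slow-ramp, long-fragment one and 93.9 to 285 in the other 4. It also had counts in 1 pull-down library, that of low depth, where it took 232 counts and mt-Nd3 had 0, in 1 digestion library (577 counts) and in 3 of 6 unselected libraries. All 3 selected libraries with a slow ramp and long fragments were among these. edgeR called it lower with the fast ramp over the 27 libraries (log2 fold change -6.99, SE 1.16, adjusted p = 0.0131, lower in 5 of 9 pairs and at 0 in the rest). That call was lost in edgeR's test when 1 library was left out in 6 cases: polyA slow long (adjusted p = 0.142), polyA fast long (0.199), polyA slow short (0.310), pull-down slow long, the library of low depth (0.166), pull-down fast long (0.0967) and digestion slow long (0.275). The sum with mt-Nd3 read 0.08 (adjusted p = 1.0).

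14 further pseudogenes outside the block shared at least 1 word of 31 bases with mitochondrial transcripts, and in none did over 50% of the words match. Gm13340 on chromosome 2, with 45.2% of its words found in mitochondrial RNA, had the highest mean count, 156 per library, and was followed by Gm13341 (36.7), Gm11410 (14.0), Gm11407 (2.79) and Gm13339 (0.59).

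By Spearman rho over the 27 selected libraries, among 15230 genes, the genes most like Gm29216 were Gm28900 (0.94), Cyp2a21-ps (0.92) and Rpsa-ps5 (0.91). Those most like Gm28661 were Pin4 (0.96), Cstb (0.96) and Metap2 (0.96), and those most like Gm28437 were Serpinb8 (0.89), Wbp4 (0.88) and Mrps31 (0.87). Gm10222 was most like Gm10718 (0.95), Gm26971 (0.87) and Gm10719 (0.87). It was at 0 in all 9 polyA and all 9 pull-down libraries, so its rho rests largely on these ties against digestion. The libraries share methods and lengths, so a high rho describes a like order over those and is given without a p.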

How the data were processed

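The values were gene-level expected counts of 34 libraries for 51368 genes, deposited by the authors as made by Salmon 1.9.0, with UMI-tools 1.1.1, R 4.4.0 and GRCm38, per the submitters' processing notes, which give no role or order. Per the labels' protocols, libraries carried adapters with molecular identifiers and had 13 PCR cycles; how the identifiers entered the counts, and the transcript set, are not given in the sources used here. Salmon divides reads that match several transcripts, so the counts of near-identical genes depend on its model.

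Symbols matched 50820 of the 51368 identifiers. Sequences and coordinates came from the GENCODE M21 transcripts and annotation of GRCm38, and members were aligned (Biopython 1.88) to the 37 mitochondrial transcripts in place of the mitochondrial genome, which was not used here. Expected counts were rounded and fitted with edgeR 4.0.16 (R 4.3.3, limma 3.58.1): TMM, filterByExpr, the quasi-likelihood F-test and Benjamini-Hochberg adjustment over all genes tested, called under 0.05. Method, ramp and length were factors, over 27 selected or 33 liver libraries or the 9 of a method. The fits over 27 and over 33 libraries alone were run on simulated counts. These had the same spread for every gene and no length effects, unlike the data, so nothing is drawn from that run. DESeq2 1.42.0, other scalings, no filter, libraries left out, a replicate block and summed pairs were alternatives, the summed pairs and DESeq2 size factors in the edgeR ramp and batch fits chosen after seeing the data. Words were 31 bases, with 21 and 51 as alternatives. Depth was 1.13 to 41.4 M counts (M, 1e+06), and intervals and floors (3 counts) cover counting error only.

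The members, lists and tests were chosen with earlier results of these data known. Named were the 4 members, the mitochondrial genes they align to, pseudogenes within 10000 bases, the 3 genes most like each member by Spearman rho, and up to 5 other pseudogenes with mitochondrial words, by mean count. mt-Nd6 and the other mitochondrial mRNAs given beside the pairs, outside this rule, were chosen after their values were seen. Replicate numbers in the titles did not pair the unselected batches (correlations of deviations from the batch means 0.05, -0.23 and -0.30 for equal numbers).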

Additional observations from a re-analysis of the deposited data

Results flagged for a closer look

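Gm28437 was flagged because its difference between long and short fragments had opposite directions in 2 methods, in every pair of libraries with the same ramp. The log2 fold change of long against short was 1.30 in polyA (higher in 3 of 3 pairs) and -1.19 in pull-down (lower in 3 of 3 pairs). The difference between these values was not tested. Summed with mt-Co3, the values were 1.03 and 0.96. The pull-down libraries with long fragments include the one of 1.13 M (1e+06) counts. No library stood apart from the other 8 of its method by Dixon's criterion in the 20 sets of normalised CPM or share of the pair that were screened.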

How the results depend on the processing

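No member passed an adjusted p of 0.05 for the ramp under DESeq2 or either scaling, or as a summed pair but for that of Gm10222 in polyA, which is mt-Nd4l alone (-0.30, adjusted p = 0.0195 in edgeR's test); the exceptions, with no filter or 1 digestion library left out, stand beside the results. Counts of genes called for the ramp in edgeR (5 over 27 libraries, then 42, 0 and 59 for polyA, pull-down and digestion alone) were 8, 223, 14 and 31 with DESeq2, and with no filter 460, 21 and 248 for the same 3 methods. Summed pairs gave 3 over 27 libraries. Without the pull-down library of low depth 17 genes were called in pull-down. Leaving out each library in turn gave 2 to 5 genes over 27 libraries, 0 to 432 in polyA (0 without medium-ramp or fast-ramp, medium-fragment libraries and 432 without the fast-ramp, long-fragment one), 0 to 17 in pull-down, 36 to 73 in digestion and 0 to 2 for the batch. The cause was not tested. For the batch, DESeq2 called 18 genes, the 6 unselected libraries alone 39 with no replicate block and 82 with the replicate block, where Gm28437 read 0.30 (edgeR adjusted p = 5.02e-09); equal numbers did not pair these libraries.

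With summed pairs the ramp read 0.051, 0.087, 0.11 and -0.16 over 27 libraries for Gm29216, Gm28661, Gm28437 and Gm10222, 0.27 for Gm29216 and 0.41 for Gm28437 in pull-down and 0.060 for Gm28661 in digestion. Leaving out 1 library, Gm28437 ranged from -0.21 to 0.078 over 27 libraries, -0.20 to 0.025 in polyA, -0.44 to 0.19 in pull-down (0.058 without the low-depth library) and -0.23 to 0.27 in digestion, Gm29216 from -0.45 to -0.13 over 27 libraries, -0.80 to -0.13 in polyA, -0.92 to -0.048 in pull-down and -0.041 to 0.18 in digestion, Gm10222 from 0.25 to 0.73 over 27 libraries and 0.24 to 0.75 in digestion, and Gm28661 from -0.27 to -0.0033 over 27 libraries, -0.26 to -0.021 in polyA, 0.067 to 0.20 in pull-down, -0.91 to -0.057 in digestion and -0.080 to 0.075 for the batch. Against unselected libraries, library totals in place of TMM turned Gm28661 to 2.35 in polyA and 1.40 in pull-down and Gm28437 to 1.53 in pull-down and 1.22 in digestion, while the median over all genes shifted to 2.67, 2.31 and 2.85 for polyA, pull-down and digestion. Summed pairs turned Gm28437 to -0.21 in polyA and to 0.079 for digestion against pull-down. For long against short, they turned Gm29216 to 0.28 over 27 libraries, and 0.69, 0.031 and 0.029 within polyA, pull-down and digestion, and Gm28437 to 0.96 in pull-down. With library totals the lower bounds for Gm29216 were 4703 in pull-down and 5991 in digestion, and 1111 for Gm10222, and the polyA ratio of Gm29216 was 26258. Of 403 alternative values for members, 346 kept direction and side of the threshold or moved by less than the spread, 33 turned direction (14 with 1 library left out), 15 moved by more than the spread and 9 newly passed the threshold. Words of 21 or 51 bases left the shares found in mitochondrial transcripts as they were (97.2 and 97.1% for Gm29216). The low-depth library had 350 counts for Gm29216.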
